A study of Mus musculus with 8 samples.

Results

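The conjugation enzymes described here are the UDP-glucuronosyltransferases (UGT), the glutathione S-transferases (GST) and the sulfotransferases (SULT) of the mouse intestine. They were chosen by symbol alone, as the protein-coding genes named Ugt or Sult followed by a digit, or Gst followed by one of the class letters a, k, m, o, p, t and z and a digit. Of the 45706 genes in the count tables, 65 met this rule, with 22 UGT, 22 GST and 21 SULT genes. RNA was sequenced from freshly detached crypts of small intestine (SI) and of colon (COL), taken from 4 wild-type C57BL/6N mice, with no transgene and no treatment in either group. Each mouse gave 1 SI and 1 COL library (SI1 to SI4 and COL1 to COL4), so that there were 4 libraries per tissue and the same number in both tissues marks the same animal. The study's methods, in the part on organoids, name the proximal SI as the source of crypts and state that villi were scraped off first. The age of the mice was not given in the sources used here.

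These 3 classes carry out the conjugation step of drug and metabolite handling, in which a polar group is attached to a lipophilic compound so that it can be carried out of the cell. UGT enzymes sit in the endoplasmic reticulum and transfer glucuronic acid from UDP-glucuronate, GST enzymes couple glutathione to electrophiles, and cytosolic SULT enzymes transfer sulfate from the activated donor PAPS. In the intestine they meet food-borne compounds, bile acids and steroids before these reach the liver.

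Total counts were between 15969428 and 32908060 per library. The share of mitochondrially encoded genes was low in COL3, COL4, SI1 and SI4, at 4.83% to 7.35%. In the remaining libraries (COL1, COL2, SI2 and SI3) it was 22.7% to 50.8%. The UGT, GST and SULT genes took between 0.130% of the counts in COL2 and 0.728% in SI3. All 9 markers of SI enterocytes were called higher in SI, with a summed level of 62243 to 145752 CPM (counts scaled to a common library size) in SI and 253 to 880 in COL, while 4 of 6 colonocyte markers were called higher in COL, at 504 to 1433 CPM in SI and 5130 to 37109 in COL. Paneth cell markers summed to 567 to 4008 CPM in SI, with SI1 the lowest, and to 25.1 to 96.0 in COL. Leukocyte markers were higher in SI for 3 of 8 genes, with sums of 4258 to 13052 CPM against 32.8 to 222, in SI nearly all of it Cd74. The T cell markers Cd3e and Cd8a were the other called leukocyte genes, with means of 18.2 and 12.8 CPM in SI and 4.37 and 2.63 in COL, while the B cell marker Cd79a was at 0 in 3 SI libraries. Of 7 goblet cell markers, Muc2, Agr2 and Spink4 were called higher in COL and none in SI. The others were not called, with log2 fold changes of 0.86 for Tff3, 0.66 for Fcgbp, 0.88 for Zg16 and −0.79 for Clca1. The list summed to 2866 to 10946 CPM in SI and 12761 to 24152 in COL. Muc2 took much of the COL sum, at 7718 to 16197 CPM there and 379 to 988 in SI. Pancreatic acinar markers did not exceed 2.18 CPM in sum in any library, and of the hepatocyte markers Alb was at or under 1.57 CPM while Ttr was called higher in COL, at no more than 20.6 CPM. SI1 had the lowest Lgr5 (0.634 CPM) and Mki67 (14.0 CPM), markers of stem and dividing cells, and the highest Apoa4 (11652 CPM) of the SI libraries. The part of these differences in cell makeup in the results that follow was not tested, and in such bulk samples fewer cells of a type and less RNA per cell cannot be told apart.

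The first comparison asked which of the conjugation enzymes differ between SI and COL crypts in their normal state. Under the scaling used for the main test, most of those that differed were higher in SI, which was not so with library size alone (9 higher in SI and 11 in COL). These were Ugt2a3, Ugt2b38, Ugt1a1 and Ugt2b34 among the UGT genes, 8 GST genes led by Gsta2, Gsta1 and Gstm3, and the sulfotransferases Sult2b1 and Sult1b1. Only 3 were called higher in COL, namely Sult1a1, Sult1c2 and Gstm5.

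Of the 65 genes, 40 passed the filter on low counts and were tested, and 25 were not. A gene was called where edgeR's quasi-likelihood test gave a Benjamini-Hochberg adjusted p under 0.05 over all 14491 genes tested. By this rule 14 of the 40 were higher in SI, where 15.5% of all genes were, 3 were higher in COL, where 12.9% of all genes were, and 23 were not called. In either direction, 42.5% of the tested members were called against 28.4% of all genes. The median log2 fold change of the 40 was 0.58, and that of all genes tested was −0.09. The 4 SI libraries lay above all 4 COL libraries in 14 members (17.8% of all genes did so) and the COL libraries above all SI libraries in 6 (15.7%). All 14 called higher in SI were higher there in 4 of 4 mice, and the 3 called higher in COL were higher there in 4 of 4 mice. Of the called genes, Ugt2a3, Ugt2b38 and Gsta2 passed the filter only through their reads in SI, and Sult1a1 and Sult1c2 only through those in COL. For these genes the size of the difference rests on low counts in the other tissue.

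**Figure D1:**
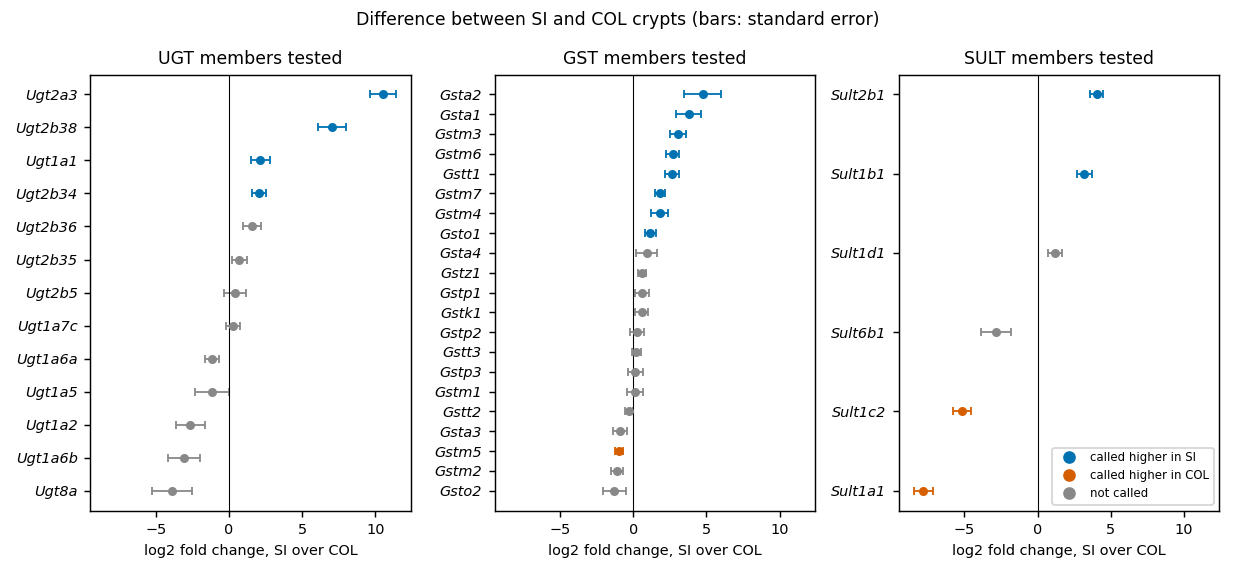
Log2 fold change of SI over COL (horizontal axis) for each of the 40 tested UGT, GST and SULT genes, with the standard error as a bar; blue points were called higher in SI, orange points higher in COL and grey points were not called. Values run from −7.79 for Sult1a1 to 10.54 for Ugt2a3, and the GST genes span a narrower range than the other classes.

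These counts rest on TMM scaling, whose factors were 0.727 to 0.798 in the SI libraries and 1.01 to 1.45 in the COL libraries. With library size alone, the median of all genes moved from −0.09 to −0.82 and that of the members to −0.22, and the split of calls went from 14 higher in SI and 3 in COL to 9 and 11. The count called higher in COL was also 5 without SI2, SI3 or COL2, and the count higher in SI was 8 without SI1 and SI3, a subset chosen after the data were seen.

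The UGT genes form the Ugt1a cluster, whose members join their own first exon to shared later exons, and the Ugt2 genes, most of them with exons of their own except for Ugt2a1 and Ugt2a2, besides Ugt3 and Ugt8 genes that use other sugars. Of 22 UGT genes, 13 were tested, 4 were called higher in SI and none higher in COL. The called share was 30.8%, near the 28.4% of all genes called in either direction. Without SI2, the number called higher in COL was 3, and it was 1 without SI3 or COL2. DESeq2 and limma-voom each gave 4.

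Ugt2a3, a glucuronosyltransferase known for acting on bile acids (chr5:87324972-87337195, mm10, minus strand), stood at 341, 165, 277 and 263 CPM in SI1 to SI4 and at 0, 0, 0.160 and 0.419 CPM in COL1 to COL4. At least 2726 reads were counted in every SI library and at most 20 in any COL library. The log2 fold change was 10.54 ± 0.90 (SE; edgeR adjusted p = 1.66e-05), the largest of the 40 genes tested, and its size depends on how counts of 0 are treated in the fit. Without COL4 it was 11.86.

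Ugt2b38 showed the same separation at a lower level (chr5:87409942-87424203). It was at 1.95, 3.14, 16.1 and 4.21 CPM in SI, with SI3 the highest, and at 0.0880, 0, 0.0267 and 0.0419 CPM in COL, where no library had more than 3 reads (log2 fold change 7.05 ± 0.96 SE, edgeR adjusted p = 0.000231). Without SI3 the log2 fold change was 6.05, still called. The gene passed the filter only through its reads in SI, and the size of its difference depends on how counts near 0 in COL are treated. Of its 50-base stretches, 37.4% also occur in transcripts of other genes, Ugt2b5 among them.

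Ugt2b34 had the highest level of the class in both tissues (chr5:86889767-86906937). Its values were 981, 572, 1164 and 898 CPM in SI and 122, 115, 367 and 269 in COL, so that the ranges did not overlap and every mouse showed more in SI. The log2 fold change was 2.05 ± 0.47 (SE; edgeR adjusted p = 0.00685).

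Ugt1a1, the enzyme that conjugates bilirubin, was at 34.9, 27.2, 29.3 and 33.7 CPM in SI and at 1.91, 1.80, 17.9 and 6.45 in COL (chr1:88211959-88218997, plus strand). The SI libraries were close to each other, while COL3 stood far above COL1 and COL2. The log2 fold change was 2.14 ± 0.64 (SE; edgeR adjusted p = 0.0259), and without SI1, COL1 or COL4 the adjusted p was 0.0508, 0.0614 and 0.0590. Without COL3 the log2 fold change was 3.19 (adjusted p = 0.00110). Only 385 of its 2224 exonic bases are free of other genes, so the count describes mainly its first exon.

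Ugt1a7c and Ugt2b5 were the other abundant UGT genes and did not pass the test. Ugt1a7c, of the same cluster as Ugt1a1, was at 96.9, 76.6, 158 and 82.9 CPM in SI and 36.3, 37.6, 165 and 97.1 in COL (log2 fold change 0.30 ± 0.48 SE, edgeR adjusted p = 0.686). Ugt2b5 was at 25.6, 12.3, 144 and 33.3 CPM in SI and 33.3, 7.27, 70.4 and 53.9 in COL (0.38 ± 0.75 SE on the log2 scale, edgeR adjusted p = 0.746). In both genes the tissues overlapped, and without SI3 the difference of Ugt2b5 was −0.78 on the log2 scale.

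Among the remaining tested UGT genes, Ugt2b36 had a log2 fold change of 1.58 (edgeR adjusted p = 0.0783) that passed with the donor mouse as a block (adjusted p = 0.00557). Ugt8a, which makes galactosylceramide rather than a glucuronide, had −3.90 (0.0511), with reads in SI2 alone among the SI libraries. The low Ugt1a genes leaned to COL without being called, at −3.08 for Ugt1a6b, −2.65 for Ugt1a2, −1.17 for Ugt1a6a and −1.17 for Ugt1a5, and for Ugt1a6b, Ugt1a2 and Ugt1a6a all COL libraries lay above all SI libraries. Each of these 4 had at most 8.39 CPM in any library.

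Of the 9 UGT genes that were not tested, Ugt1a10, Ugt1a8 and Ugt2a1 had no read in any library. The others were Ugt1a9 with up to 45 reads, Ugt2b1 with up to 28, Ugt3a1 with up to 11, Ugt3a2 with up to 10, Ugt2b37 with up to 6 and Ugt2a2 with up to 1. For Ugt2a1 and Ugt2a2 this says little, since 30 of 2570 and 140 of 2541 exonic bases are theirs alone and reads over 2 genes are left out by the counting used.

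**Figure D2:**
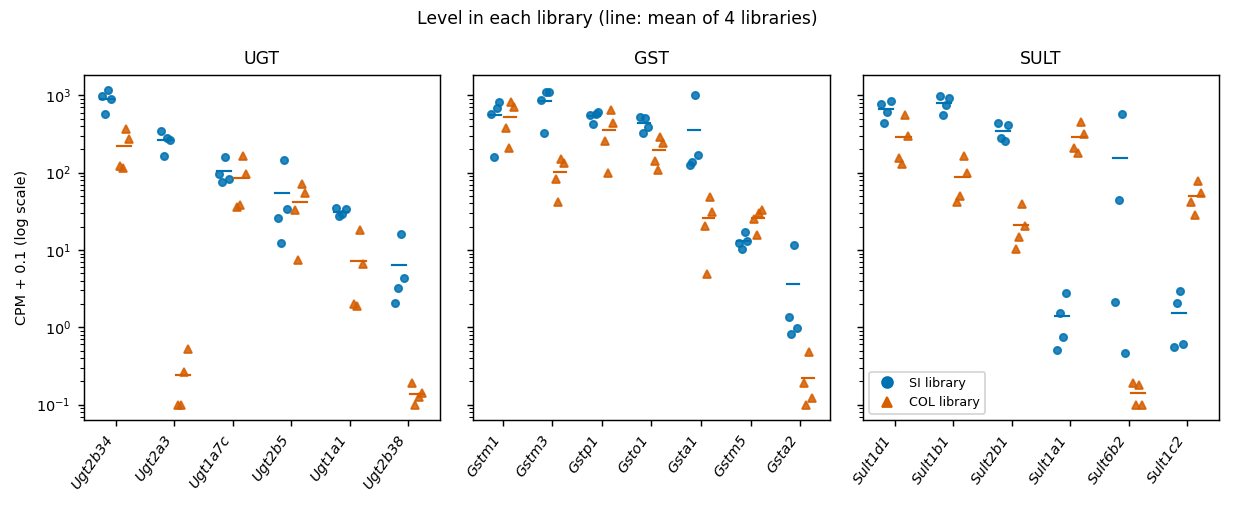
CPM in each library, plus 0.1 and on a log axis, for the UGT, GST and SULT genes with the highest levels or the largest called differences; circles are the 4 SI libraries, triangles the 4 COL libraries and short lines their means. Ugt2a3, Ugt2b38, Sult1a1 and Sult1c2 are separated by the widest gaps, and in Gstm1, Gstp1, Ugt1a7c and Ugt2b5 the tissues overlap.

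The GST genes are grouped by sequence into alpha, kappa, mu, omega, pi, theta and zeta classes. All but 1 of the 22 were tested, Gstt4 being left out with at most 2 reads. Of the 21 tested, 8 were called higher in SI and 1 higher in COL, and the median log2 fold change was 0.60. These were 38.1% and 4.76% of the tested GST genes, beside 15.5% and 12.9% of all genes. The count higher in SI was 5 without SI3 and 5 without COL1. Leaving out any one of 6 libraries, all but SI3 and COL2, ended the call of the COL-higher gene.

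The mu class showed the clearest contrast between close relatives. Gstm3 (chr3:107963696-107969283, minus strand) was at 870.3, 328, 1094 and 1118 CPM in SI and 81.7, 41.5, 151 and 133 in COL, a log2 fold change of 3.07 ± 0.53 (SE; edgeR adjusted p = 0.00136) with no overlap. Gstm1 (chr3:108012255-108017973), which lies in the same cluster, was at 573, 157, 685 and 832 CPM in SI and 380.5, 209, 816 and 698 in COL. Its libraries overlapped entirely, with a log2 fold change of 0.10 ± 0.55 (SE; edgeR adjusted p = 0.915).

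The opening of both coding sequences is shown because reads are assigned to the 2 genes by differences of this kind. The first 120 bases of each coding sequence, from the start codon in GENCODE vM21 transcripts and 5′ to 3′, differ at 18 positions, which are in capitals.
Gstm1: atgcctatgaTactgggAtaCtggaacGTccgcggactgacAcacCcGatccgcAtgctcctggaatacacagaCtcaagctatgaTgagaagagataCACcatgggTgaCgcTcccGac
Gstm3: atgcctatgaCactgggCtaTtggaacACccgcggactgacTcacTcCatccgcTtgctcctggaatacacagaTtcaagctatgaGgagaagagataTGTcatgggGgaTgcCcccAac
Over the 657 coding bases the 2 genes are 89.5% identical. Of the 50-base stretches of their longest transcripts, 23.1% for Gstm1 and 28.8% for Gstm3 also occur in other genes, and reads that fit several places equally well were not counted.

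The ratio of Gstm3 to Gstm1 counts within a library does not depend on scaling between libraries. On the log2 scale it was 0.60, 1.06, 0.67 and 0.43 in SI1 to SI4 and −2.22, −2.33, −2.43 and −2.39 in COL1 to COL4. Gstm3 thus gave more reads than Gstm1 in every SI library and fewer in every COL library.

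Also called higher in SI were Gstm6 with a log2 fold change of 2.70 (edgeR adjusted p = 0.000869), Gstm7 with 1.82 (0.00337) and Gstm4 with 1.80 (0.0416). Gstm4 was not called without SI1, SI3, SI4 or COL1 (adjusted p from 0.0670 to 0.119). Gstm5 (chr3:107895821-107898686, plus strand) was called higher in COL. It was at 12.3, 10.3, 17.0 and 12.8 CPM in SI and 24.7, 15.5, 30.1 and 33.1 in COL, with COL2 below SI3, and its log2 fold change was −0.98 ± 0.30 (SE; edgeR adjusted p = 0.0291). Gstm2 had −1.09 (adjusted p = 0.0626) and was called higher in COL with the donor block (adjusted p = 0.0232). The 7 mu genes lie within 149 kb on chromosome 3.

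The alpha class includes enzymes with peroxidase activity toward lipid hydroperoxides. Gsta1 (chr9:78230656-78242684, plus strand) was at 125, 137, 1009 and 171 CPM in SI and 20.3, 4.85, 47.8 and 30.5 in COL. Gsta2 (chr9:78331018-78355788, minus strand) was at 1.27, 0.725, 11.4 and 0.870 CPM in SI and 0.0880, 0, 0.374 and 0.0209 in COL. In both genes SI3 stood far above the other SI libraries, and all SI libraries were above all COL libraries.

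Gsta1 had a log2 fold change of 3.80 ± 0.86 (SE; edgeR adjusted p = 0.00650) and Gsta2 4.74 ± 1.26 (SE; edgeR adjusted p = 0.0147). Without SI3, Gsta1 had 2.49 and was still called, while Gsta2 had 2.89 with an adjusted p of 0.0816. Without COL1, Gsta2 had an adjusted p of 0.0519, and without COL3 a log2 fold change of 6.30. It had at most 14 reads in any COL library, so the size of its difference depends on how counts near 0 are treated. Since 89.7% of the 50-base stretches of Gsta1 and 64.2% of those of Gsta2 occur elsewhere, how reads were divided between them is uncertain. Gsta4, which acts on the lipid aldehyde 4-hydroxynonenal, had 0.92 (adjusted p = 0.377), and Gsta3 had −0.89 (0.207).

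Of the pi, omega, theta, kappa and zeta genes, Gsto1 and Gstt1 were called. Gsto1, an omega enzyme that reduces dehydroascorbate (chr19:47854970-47864790), was at 528, 324, 507 and 389.6 CPM in SI and 141, 107, 286 and 242 in COL. The tissues did not overlap, and the log2 fold change was 1.17 ± 0.38 (SE; edgeR adjusted p = 0.0403), which fell out of the calls without any one of SI1, SI3, SI4, COL1, COL2 or COL4 (adjusted p from 0.0548 to 0.112). Gstt1, a theta enzyme, had 2.64 (adjusted p = 0.00162), while its neighbours Gstt2 and Gstt3 had −0.30 (0.435) and 0.22 (0.596).

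Gstp1, the main pi enzyme, was at 558, 421, 581 and 617 CPM in SI and 253, 99.4, 645 and 441 in COL (chr19:4035407-4037985). COL3 was the highest of all 8 libraries, and the log2 fold change of 0.60 ± 0.50 (SE; edgeR adjusted p = 0.405) did not pass. Gstp1 shares 62.3% of its 50-base stretches with other genes, mostly Gstp2, which had 0.25 (adjusted p = 0.737). Gstz1, an enzyme of tyrosine breakdown, was above COL in all SI libraries with 0.62 (0.110), and Gstk1, of peroxisomes and mitochondria, had 0.57 (0.395).

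SULT genes were divided between the tissues. Of 21 genes, 15 were not tested, and 4 of the 6 tested were called, 2 in each direction. The called share was 66.7% of only 6 genes, beside 28.4% of all genes. Without COL3, the number higher in SI was 4, which counts Sult6b2, a gene that was not among these 6.

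Sult1b1, a phenol and thyroid hormone sulfotransferase (chr5:87513339-87538195, minus strand), was at 992, 563, 758 and 917 CPM in SI and 41.6, 49.8, 163 and 97.9 in COL. Sult2b1, which sulfates cholesterol and related sterols (chr7:45729983-45784669, minus strand), was at 438, 280.2, 260.0 and 410.4 CPM in SI and 10.2, 14.8, 39.3 and 20.1 in COL. For both genes the lowest SI library was well above the highest COL library. Sult1b1 had a log2 fold change of 3.20 ± 0.50 (SE; edgeR adjusted p = 0.000656) and Sult2b1 4.04 ± 0.47 (SE; edgeR adjusted p = 9.57e-05).

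Sult1a1, the main phenol sulfotransferase of many tissues, ran the other way (chr7:126672865-126676432, minus strand). It was at 0.408, 1.45, 0.659 and 2.66 CPM in SI and at 209.7, 181, 449 and 313 in COL. No SI library had more than 58 reads and no COL library fewer than 2912. Its log2 fold change was −7.79 ± 0.68 (SE; edgeR adjusted p = 1.85e-05), and without SI4 it was −8.47.

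Sult1c2 followed the same pattern at a lower level (chr17:53829637-53846339, minus strand). It was at 0.453, 1.93, 2.84 and 0.504 CPM in SI and 41.2, 28.2, 78.2 and 53.8 in COL, the log2 fold change being −5.15 ± 0.63 (SE; edgeR adjusted p = 0.000127). Within a library, the log2 ratio of Sult1b1 to Sult1a1 counts was 11.2, 8.60, 10.2 and 8.43 in SI and −2.33, −1.86, −1.46 and −1.68 in COL. The prevailing gene of this pair was thus different in the tissues in all 4 mice.

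Sult1d1, known for sulfating catecholamines (chr5:87554645-87569027), was at 768, 437, 609 and 842 CPM in SI and 155, 129.8, 561 and 296 in COL. It was higher in SI in 4 of 4 mice, but COL3 lay above SI2. The log2 fold change of 1.22 ± 0.49 (SE; edgeR adjusted p = 0.0850) did not pass, and with the donor block the adjusted p was 0.0489. Sult6b1 had −2.83 (0.0539) at no more than 1.68 CPM.

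Sult6b2 (chr6:142785204-142804502) was among the most abundant SULT genes by its mean and yet failed the filter, which asks for enough reads in 4 libraries. Its counts were 44, 728, 11416 and 8 in SI1 to SI4 and 3, 0, 3 and 0 in COL1 to COL4, or 1.99, 44.0, 579 and 0.366 CPM in SI. Nearly all of its reads came from SI3, with the next highest value in SI2. With all 8 libraries it was therefore not tested. It passed the filter and was called higher in SI without SI4 or any 1 COL library, at 11.10 to 12.14 on the log2 scale (highest edgeR adjusted p = 0.0173), and did not pass without SI1, SI2 or SI3. Those fits had standard errors of 1.87 to 3.06, and the gene passed their filter only through its reads in SI1, SI2 and SI3. Without a filter the log2 fold change was 11.52 with an SE of 0.72. That SE does not reflect the spread of 8 to 11416 reads between the SI libraries, so no p-value is given for it. The size of these values depends on how counts near 0 in COL are treated.

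The 14 other untested SULT genes were close to absent. Sult4a1 had up to 40 reads in a COL library and none in SI, Sult1e1, the estrogen sulfotransferase, had up to 15, and Sult1c1 and Sult5a1 had up to 6 each. The 8 Sult2a genes, known for sulfating steroids and bile acids in the liver, had at most 3 reads in any library, and Sult3a1 and Sult3a2 had at most 1.

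The windows around the start sites of 4 genes with large differences, 2 higher in SI and 2 higher in COL, are shown because regulators of intestinal genes were also measured. Each holds 250 bases before and 50 after the start in the RefSeq table of GRCm38.p6, 5′ to 3′ on the gene's own minus strand, and was the window nearest to the GENCODE start. Capitals mark matches on either strand to AGATAA (the GATA motif), CAAAGTCCA (HNF4), TTTATG (CDX) or TGACNNNGC (the antioxidant response element).
Ugt2a3, chr5:87337146-87337445: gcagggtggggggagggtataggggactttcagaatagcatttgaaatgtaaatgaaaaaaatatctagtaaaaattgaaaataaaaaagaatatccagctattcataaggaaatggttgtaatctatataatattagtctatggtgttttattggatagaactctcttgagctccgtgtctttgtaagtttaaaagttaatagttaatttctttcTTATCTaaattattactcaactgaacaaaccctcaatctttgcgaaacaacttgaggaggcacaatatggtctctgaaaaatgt
Sult1b1, chr5:87538146-87538445: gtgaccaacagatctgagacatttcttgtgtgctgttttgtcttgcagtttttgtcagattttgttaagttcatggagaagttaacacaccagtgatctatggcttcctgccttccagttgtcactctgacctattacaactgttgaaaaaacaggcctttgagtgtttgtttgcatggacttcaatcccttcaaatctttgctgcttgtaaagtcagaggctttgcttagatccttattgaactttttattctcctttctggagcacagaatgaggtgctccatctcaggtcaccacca
Sult1a1, chr7:126676369-126676668: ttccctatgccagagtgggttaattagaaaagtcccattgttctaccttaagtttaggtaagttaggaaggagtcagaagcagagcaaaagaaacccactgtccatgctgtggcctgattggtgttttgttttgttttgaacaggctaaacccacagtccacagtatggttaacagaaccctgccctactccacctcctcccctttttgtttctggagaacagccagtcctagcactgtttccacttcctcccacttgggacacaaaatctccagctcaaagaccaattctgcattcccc
Sult1c2, chr17:53845909-53846208: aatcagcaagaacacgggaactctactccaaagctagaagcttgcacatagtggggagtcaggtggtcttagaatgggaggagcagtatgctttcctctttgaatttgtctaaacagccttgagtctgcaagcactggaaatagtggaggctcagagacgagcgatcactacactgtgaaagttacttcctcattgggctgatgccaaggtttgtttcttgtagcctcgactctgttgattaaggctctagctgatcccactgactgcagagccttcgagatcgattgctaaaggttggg
The Ugt2a3 window held 1 GATA match close to the start. Those of Sult1b1, Sult1a1 and Sult1c2 held no match. For Sult1c2 the GENCODE start, at position 53846339, lies outside the window shown.

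Windows were found for 57 of the 65 genes, 68 windows in all. A gene with several windows had more chances of a match. The counts below are of genes and the shares are of single windows, so the 2 cannot be compared directly. Among these, 11 genes had a GATA match, a motif held by 11.2% of all 32851 windows. The HNF4 letters were found for 1 gene, Sult1b1 at a second start site, and in 0.475% of all windows. CDX letters occurred for 4 genes (11.9% of all windows) and the antioxidant response element for Gsta3, Gstm5 and Gstm7 (12.4%). These matches describe letters in the windows and were not related to the levels.

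A list of 15 xenobiotic and intestinal regulators was read beside them, of which 5 were called higher in SI and 2 higher in COL. Gata4 had a log2 fold change of 8.98 ± 0.64 (SE; edgeR adjusted p = 8.57e-06) and Hnf4g 4.44. Nr1i3, the xenobiotic receptor CAR, had 6.61, and its partner Rxra had 1.18. Arnt, the partner of the dioxin receptor, had 0.71, with an adjusted p of 0.0403 that was 0.0668 with the donor block and a value of −0.04 with library size alone. Higher in COL were Cdx1 at −2.09 and the bile acid receptor Nr1h4 at −1.22. Hnf4a, Nfe2l2, Ahr and Nr1i2, the pregnane X receptor, were not called, although Nr1i2 passed with the donor block (0.86, adjusted p = 0.0344).

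Position was next compared with direction in the largest of the clusters. On chromosome 5, 10 UGT and 3 SULT genes stand side by side within 702 kb (chr5:86889767-87591594). Of these, 8 were tested, and 4 were called higher in SI and none higher in COL, where 15.5% and 12.9% of all genes were. Differences were unequal between neighbours. Ugt2a3 and Ugt2b38 had log2 fold changes of 10.54 and 7.05, Ugt2b35 and Ugt2b5 had 0.71 and 0.38, and Sult1b1 and Sult1d1, 2 neighbours on the same strand, had 3.20 and 1.22.

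**Figure D3:**
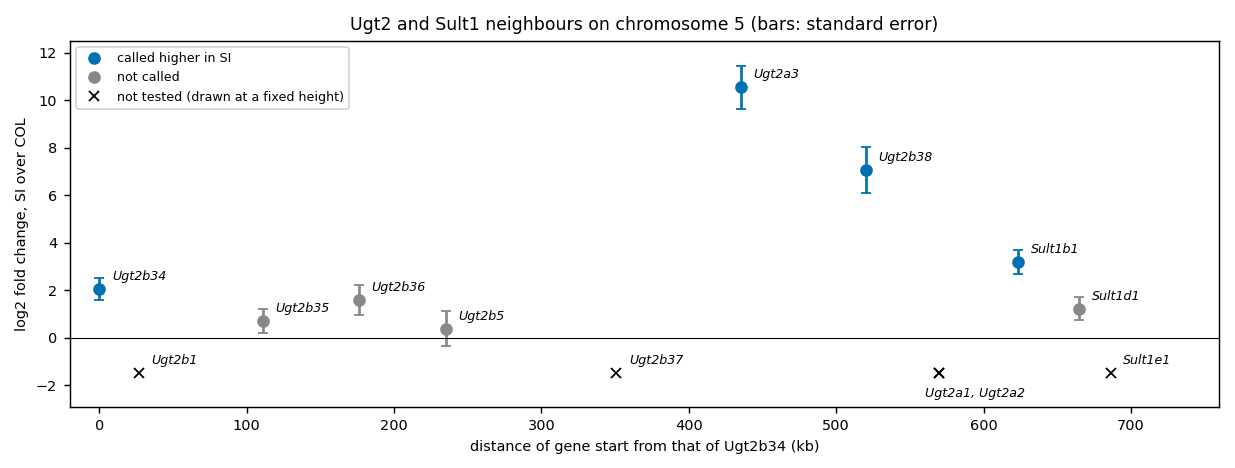
Log2 fold change of SI over COL (vertical axis, with the standard error) against the distance in kb of each gene's start from that of Ugt2b34 for the 13 UGT and SULT genes on chromosome 5; crosses are genes that were not tested, drawn at a fixed height. The 4 called genes lie at 0, 435, 520 and 624 kb, and 5 genes that were not called or not tested lie between those at 0 and 435 kb.

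To compare levels between genes, CPM was divided by the length in kb of exon that no other gene overlaps. On this per-kb scale, the highest mean levels in SI were those of Gstm3 at 650.4, Gstm1 at 381, Gsta1 at 377, Gstp1 at 352, Sult1b1 at 291, Sult1d1 at 270.1, Gsto1 at 216 and Ugt2b34 at 209.6 CPM per kb. The place of Gsta1 rests on SI3, without which its mean was 151 CPM per kb, below the 189 of Ugt2b34 in the same libraries. The ranges over the 4 SI libraries overlapped between each of these and the next in order. Reads that fit several places were left out, so Gsta1 and Gstp1, with 89.7% and 62.3% of their stretches shared, may stand too low. In COL the order was Gstm1 at 357, Gstp1 at 232, Sult1a1 at 199, Sult1d1 at 116, Gsto1 at 95.8, Gstm3 at 77.6, Gstm2 at 53.8 and Ugt2b34 at 50.6 CPM per kb, again with overlap between neighbours. For Ugt1a1 the per-kb level in SI was 81.2 with its unshared bases and 14.1 with its full exon length, so its place in such an order depends on the length used.

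Shares within a subfamily were taken on the same per-kb scale in each library. They are shares of the counted reads, with no correction for reads left out because they fit several places. Sult1b1 and Sult1d1 made up 51.8% ± 2.0 and 47.8% ± 2.0 of the Sult1 level in SI (SD, n = 4). In COL they made up 8.13% ± 1.38 and 29.1% ± 4.9, and Sult1a1 made up 55.2% ± 5.1 (SD, n = 4), against 0.166% ± 0.118 in SI. No share of these 3 genes overlapped between the tissues.

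In the mu class Gstm3 made up 55.5% ± 1.0 in SI and 14.6% ± 0.7 in COL, and Gstm1 30.9% ± 4.9 and 65.7% ± 2.2 (SD, n = 4). The Gstm3 share spanned only 54.6% to 56.8% over the 4 SI libraries, although its CPM ran from 328 to 1118. In the alpha class, Gsta1 made up 79.0% ± 2.6 in SI and 31.5% ± 6.0 in COL, where Gsta4 made up 59.7% ± 6.0 (SD, n = 4). Of the 50-base stretches, 89.7% of Gsta1 and 0% of Gsta4 occur in other genes. The counting therefore lowers Gsta1 against Gsta4, and which of the 2 led in COL is uncertain. Gstt1 made up 81.2% ± 6.3 of the theta class in SI and 40.8% ± 7.1 in COL (SD, n = 4).

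The pi and Ugt2 families differed less in their leading gene. Gstp1 made up 87.3% ± 1.8 of the pi level in SI and 83.9% ± 0.7 in COL, and Ugt2b34 made up 56.1% ± 2.9 of the Ugt2 level in SI and 66.0% ± 9.8 in COL (SD, n = 4). The second Ugt2 gene was Ugt2a3 in SI at 33.4% ± 5.6 and Ugt2b5 in COL at 26.4% ± 10.2 (SD, n = 4). In the Ugt1a cluster, Ugt1a1 made up 59.2% ± 8.9 in SI and 21.2% ± 9.8 in COL, and Ugt1a7c 38.2% ± 8.1 and 60.6% ± 9.4 (SD, n = 4), with a range that overlapped between the tissues for Ugt1a7c. These shares are descriptions, and no test was made of them.

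**Figure D4:**
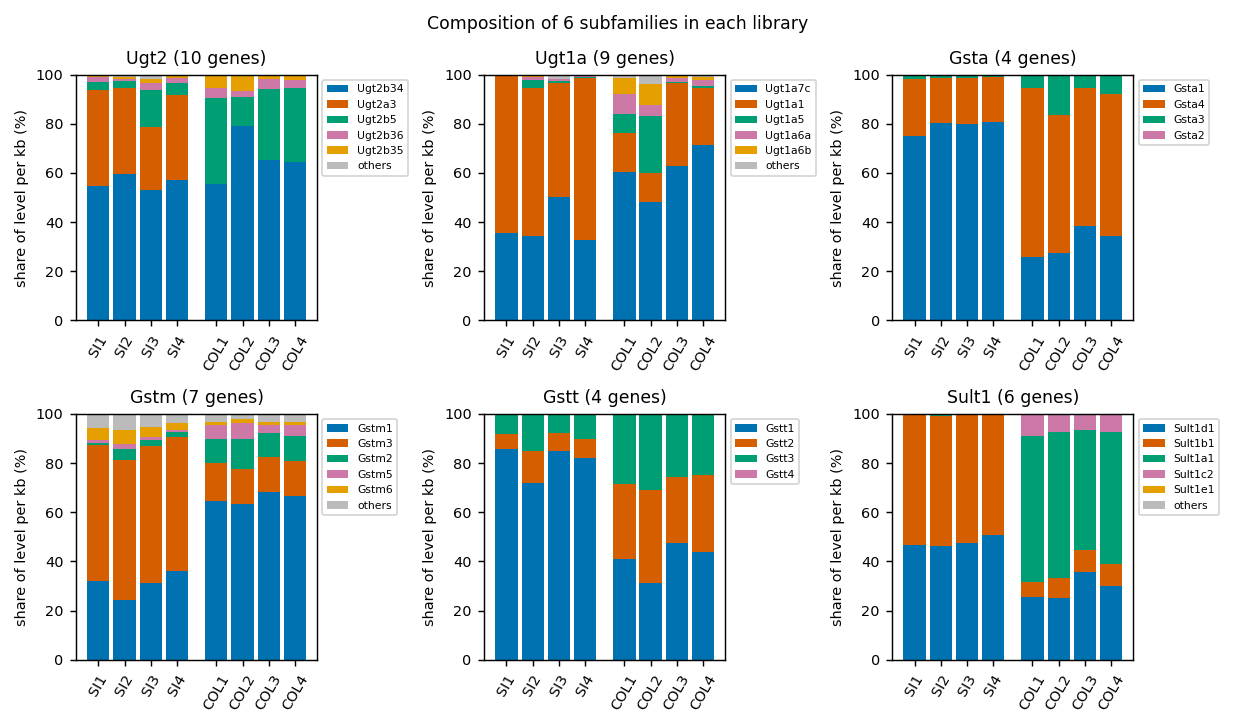
Share in percent of the summed level per kb of exon that each gene takes within 6 subfamilies (vertical axis) in each of the 8 libraries (horizontal axis); the 5 leading genes of a subfamily are coloured and the others are grey. In the Gstm, Gsta, Gstt and Sult1 panels the leading shares of the 4 SI bars stand apart from those of the 4 COL bars.

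The summed level of each class was next set out by library. UGT genes summed to 1508, 875, 1857 and 1343 CPM in SI and 219, 188, 651 and 449 in COL. GST genes summed to 3563, 1844, 5074 and 3903 CPM in SI and 1293, 693, 2655 and 2182 in COL. SULT genes summed to 2202, 1329.8, 2209 and 2173 CPM in SI and 458, 406, 1292 and 782 in COL. With TMM scaling, UGT and SULT sums did not overlap between the tissues, while the GST sum of SI2 lay below those of COL3 and COL4. Relative to total counts, SI2 lay below COL3 in the UGT and SULT sums too. UGT genes had 14486 and SULT genes 22009 of the 21156329 counts of SI2. In COL3 they had 24334 and 48301 of 28774262.

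Within COL, the libraries with a high mitochondrial share, COL1 and COL2, were both below COL3 and COL4 in 31 of the 40 tested members, a pattern that 34.6% of all tested genes had, and both above in 4 members (26.9% of all genes). SI2, the SI library with the highest mitochondrial share, was the lowest SI library in 25 of the 40 (25.3% of all genes). The part of this share in the levels was not tested. Within the 4 libraries of low mitochondrial share alone, 12 members were called higher in SI and 11 higher in COL. Within the other 4 libraries these counts were 16 and 2, the 16 including Sult6b2, which was not among the 40. Both subsets were chosen after the data were seen. The shares of all genes called in these fits are not given, so the counts cannot be read as particular to these enzymes. Gstm3 differed by 2.80 and 3.36 on the log2 scale (with an offset of 0.1 CPM) within the low and the high level, Sult1b1 by 2.91 and 3.84, Ugt2a3 by 9.67 and 11.1, and Sult1a1 by −8.31 and −7.49. Ugt1a7c differed by −0.50 and 1.57 and Ugt2b5 by −1.07 and 1.43, so that their direction turned with the level.

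SI3 stood apart from the other SI libraries in a subset of the genes. Of the 40 tested members, 8 were more than 2-fold above the next highest SI library there, which was the case for 2.47% of all tested genes. They were Gsta1, Gsta2, Gsta3, Gsta4, Gstp3, Ugt2b5, Ugt2b35 and Ugt2b38, and among the genes not tested Sult6b2 and Ugt1a9 did the same. Gsta4 was at 319 CPM in SI3 and 41.5 to 51.0 in the other SI libraries. Ugt2b35 was at 28.7 CPM against 5.38 to 8.15, and Gsta3 at 27.6 against 6.00 to 10.1.

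Other abundant members did not follow SI3. Sult2b1 was lowest there, Sult1b1 and Sult1d1 were between the other libraries, and Gstm3 was at 1094 CPM beside 1118 in SI4. Papss2, an enzyme that makes PAPS, was at 2403 CPM in SI3 and 333 to 423 in the others. Tmprss15 and Akp3, 2 brush border enzymes known from the duodenum and chosen after the values were seen, were at 165 and 2353 CPM in SI3 and at most 31.6 and 99.5 in the other SI libraries. Of the 9 SI enterocyte markers, Sis alone was highest in SI3, at 3374 CPM beside 2049 to 2235 in the other SI libraries. Lct, Apoa1 and Anpep were lowest in SI3, and the remaining markers lay between. Gata4 was at 49.4 CPM in SI3 and at 48.3 to 52.9 in the others. Whether the stretch of intestine taken differed between mice was not tested.

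**Figure D5:**
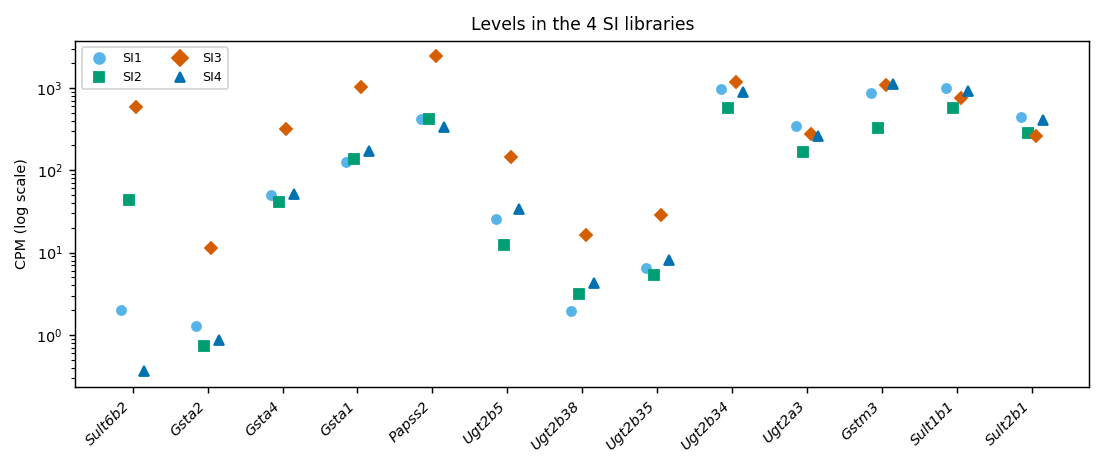
CPM on a log axis in the 4 SI libraries for 12 UGT, GST and SULT genes and Papss2; each symbol and colour is 1 library. SI3 is the highest library for the 8 genes on the left by 3.5-fold or more over the next, and lies among the other libraries or close to them for the 5 on the right.

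Genes that supply the co-substrates, handle the products or carry out related reactions were then examined as lists. The counts in these short lists stand beside 15.5% of all genes called higher in SI and 12.9% higher in COL. UDP-glucuronate supply and glucuronide cleavage showed no call among 4 genes. Ugdh, which makes UDP-glucuronate, had a log2 fold change of 0.08 (edgeR adjusted p = 0.923), and Gusb, which cleaves glucuronides, had −0.89 (0.0740).

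In PAPS supply and use, 1 of 6 genes was called in each direction. Bpnt1, which breaks down the spent sulfate donor, was higher in SI at 3.30 (adjusted p = 0.000451), and the Golgi PAPS carrier Slc35b2 was higher in COL at −1.17 (0.0176). Papss2 had 1.74 (0.0751) and Papss1 −0.04 (0.960).

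Among 9 genes of glutathione synthesis and turnover, 2 were higher in SI and 1 in COL. Ggt1, which opens glutathione at the cell surface, had 7.01 (adjusted p = 0.000131), and Dpep1, which cleaves the resulting dipeptide, had 1.69 (0.0453, and 0.0509 with the donor block). The cystine carrier Slc7a11 had −2.71 (0.0434). Gclc, Gclm, Gss and Gsr, which make and reduce glutathione, were not called, although Gclc passed in the direction of COL with the donor block (−0.76 without it, adjusted p = 0.0399 with it).

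Of 5 transporters that export conjugates, 2 were called in each direction. The apical pumps Abcc2 and Abcg2 were higher in SI at 7.44 and 1.99, and Abcc1 and Abcc4 were higher in COL at −2.87 and −2.87. Abcc3 had −0.64 (adjusted p = 0.288). In CPM, Abcc2 had a mean of 342 in SI and 1.94 in COL, and Abcc1 5.08 and 37.3.

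Other conjugation enzymes, 3 of 6 tested, held 2 that were higher in SI and none in COL, namely Nat2 at 1.80 and As3mt at 1.21. Of 8 glutathione transferases outside the classes named above, 7 were tested, and Ltc4s was higher in SI at 2.39 while the prostaglandin synthases Ptges and Hpgds were higher in COL at −5.57 and −1.70. Of 6 NRF2 target genes, Osgin1 and Srxn1 were higher in SI at 2.90 and 1.76 and Hmox1 in COL at −4.10, and Nqo1 had −0.50 (adjusted p = 0.445). The medians of these 7 lists lay between −0.64 and 1.21, with −0.27 for UDP-glucuronate, −0.05 for PAPS, 0.50 for glutathione, −0.64 for export, 1.21 for other conjugation enzymes, 0.22 for other glutathione transferases and 0.73 for NRF2 targets, beside −0.09 for all genes.

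Finally, the sexes were compared, since conjugation enzymes are known to differ between them in liver and kidney. The labels give 2 female and 2 male mice, but the libraries went against this. All 4 libraries of the mice labelled female had Ddx3y, a Y-linked gene, at 24.4 to 41.6 CPM and Xist, the RNA of the inactive X, at no more than 0.381 CPM, while those of the mice labelled male had Xist at 89.5 to 478 CPM and Ddx3y at no more than 0.0267. The groups are therefore named by their labels only.

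In SI, 4 of all 14491 genes differed between the mice labelled female and male (0.0276%), and in COL 4 did (0.0276%), by edgeR. None of the 40 members was called in either tissue, and limma-voom called none. At an unadjusted edgeR p under 0.05 there was 1 member in SI and 0 in COL, where 9.58% and 1.88% of all genes were. No gene was called for a difference of the SI to COL contrast between the labelled sexes (0%), and 1 member, Sult1c2, had an unadjusted p under 0.05, as 5.25% of all genes had. In SI, Sult1c2 was lower in the mice labelled female by −2.31 ± 0.59 on the log2 scale (SE; edgeR adjusted p = 0.412), with 0.453 and 0.504 CPM in SI1 and SI4 and 1.93 and 2.84 in SI2 and SI3. In SI the labelled sex and the mitochondrial share divide the mice alike and cannot be told apart.

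With the donor mouse as a block, 16 members were called higher in SI and 4 higher in COL, with 28.1% of all genes called. The 3 calls this added were those of Ugt2b36, Sult1d1 and Gstm2 given above.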

How the data were processed

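RNA-Seq counts of SI and COL crypts from 4 mice were used, 8 libraries in all, with crypts detached by EDTA. The authors deposited whole-number counts per Ensembl gene, not normalized, after trimming with Trimmomatic 0.36 and aligning and counting with STAR 2.5.2b, as per the labels. The labels name mm10 and mm9, the paper's methods mm10. The annotation release and use of strand are not given in the sources used here. Counting of this kind leaves out reads that fit several places or overlap 2 genes, which lowers the values of near-identical genes and of the Ugt1a cluster. If the counting ignored strand, reads of an antisense gene would be included.

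Symbols, positions and exon lengths were looked up in GENCODE vM21, built on GRCm38 (mm10), which named 45143 of 45706 identifiers. Start site windows came from RefSeq (GRCm38.p6). Groups were taken from the sample titles and mice from the descriptions. The members and lists were chosen with earlier results of these data known, and some genes of the lists are not reported here.

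Tests were run with edgeR 4.0.16 (R 4.3.3): filterByExpr (minimum count 10, total 15), TMM, glmQLFit and glmQLFTest of tissue alone, and Benjamini-Hochberg adjustment over 14491 genes at 0.05. CPM are counts relative to the TMM-scaled library size. The paper's methods name limma without its settings, so limma-voom 3.58.1 and DESeq2 1.42.0 were alternatives. The scripts were tested on simulated data. P-values of the main test measure the spread between the 4 libraries within a tissue, each from another mouse, and do not use the pairing by mouse. Those between the labelled sexes rest on 2 mice against 2 in each tissue. SI and COL libraries of a number share an animal by the labels, and the correlations of their deviations from the tissue means were −0.24, 0.39, −0.08 and 0.33 for mice 1, 2, 3 and 5. The donor block was an alternative. Full values are given for the 5 genes of each class with the highest mean CPM in either tissue and the 3 called genes of each class with the largest change in each direction, and the rest are summarised.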

Additional observations from a re-analysis of the deposited data

Results flagged for a closer look

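Of 82 groups of 4 libraries, the tested UGT, GST and SULT genes and Sult6b2 in each tissue, 10 held a library whose gap to the nearest other exceeded Dixon's 95% critical value. For independent groups with a normal spread, about 1 in 20 would be flagged, or 4.1 here, and 8 of the 10 lay in SI3. The CPM used here are not normal in spread and the genes share libraries. The number 4.1 is therefore no measure of chance in these data. In that library Sult6b2 was at 579 CPM with 0.366 to 44.0 in the others, Gsta1 at 1009 with 125 to 171, Gsta4 at 319 with 41.5 to 51.0, and Gsta2 at 11.4 with 0.725 to 1.27. Ugt2b5 was at 144 CPM in SI3 with 12.3 to 33.3 in the others, Ugt2b35 at 28.7 with 5.38 to 8.15, Ugt2b38 at 16.1 with 1.95 to 4.21, and Gstp3 at 9.48 with 3.62 to 4.44. Outside SI3, Ugt8a was at 0.665 CPM in SI2 and at 0 in the other SI libraries. Sult6b1 was at 1.68 CPM in COL2 and at 0.293 to 0.440 in the other COL libraries.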

How the results depend on the processing

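Of 210 values of the 18 fully described and tested genes under settings other than leaving out a single library, 180 kept their direction and their side of the threshold, 12 fell short of it, 7 newly passed and 11 changed sign. Of 144 values without 1 library, these numbers were 122, 17, 1 and 4. DESeq2 gave Gsta1 and Gsta2 values of 3.75 and 4.77 with no adjusted p, and these are left out of the numbers above and of its calls. All sign changes were in genes that were not called in the first place. Gstm1 had −0.70 with library size alone, −0.013 with limma-voom and the block, −0.0060 with at least 10 counts in every library and −0.11 in the low mitochondrial libraries, and ran from −0.13 to 0.42 without 1 library (−0.13, −0.03 and −0.11 without SI4, COL1 and COL2). With library size alone Gstp1 had −0.20, Ugt1a7c −0.47 and Ugt2b5 −0.41. In the low mitochondrial libraries Ugt1a7c had −0.55 and Ugt2b5 −1.08, and without SI1 and SI3 they had −0.047 and −0.79. Ugt2b5 ran from −0.78 to 0.77 without 1 library.

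The number called higher in SI was 14, and 9 with library size alone, 8 without SI1 and SI3, 9 without genes that share over 20% of their stretches, and 11 to 17 without 1 library. The numbers without SI4, without any 1 COL library and in the high mitochondrial libraries include Sult6b2, here and among the SULT genes below. It passed the filter in those fits only through its reads in SI. The number higher in COL was 3, and 11 with library size alone, 6 without mitochondrially encoded genes, 9 with DESeq2, 7 with limma-voom, 7 with limma-voom and the block, 6 with the mitochondrial level as a term, 7 without a filter, 11 in the low mitochondrial libraries and 2 to 5 without 1 library. UGT genes higher in SI numbered 4, and 2 with library size alone, with at least 10 counts in every library, without SI1 and SI3, and without shared genes. UGT genes higher in COL numbered 0, and 4 with library size alone, DESeq2, limma-voom or the low mitochondrial libraries, 3 with limma-voom and the block, 2 without mitochondrially encoded genes, with the mitochondrial term or without a filter, and 0 to 3 without 1 library. GST genes higher in SI numbered 8, and 5 with library size alone or without shared genes, 4 without SI1 and SI3, and 5 to 8 without 1 library. GST genes higher in COL numbered 1, and 4 with library size alone or in the low mitochondrial libraries, 0 in the high ones, 2 without mitochondrially encoded genes, with DESeq2, with the donor block in edgeR or limma-voom, without a filter or with at least 10 counts in every library, and 0 to 2 without 1 library. SULT genes higher in SI numbered 2, and 4 in the high mitochondrial libraries and 2 to 4 without 1 library, and those higher in COL 2, and 1 with at least 10 counts in every library. The causes were not tested. Across the fully described genes, the donor mouse as a replicate block in edgeR changed no call other than that of Sult1d1. Without a filter 1 member, Sult6b2, was called between the labelled sexes in SI and 1 in the difference of contrasts. For Sult6b2 the fit without a filter does not reflect the spread between SI libraries, as said above. The subsets by mitochondrial level and without SI1 and SI3 were chosen after the data were seen. Members that did not pass the filter were compared between the tissues only in some of these alternatives, and at no more than 3 reads in any library a difference was not detectable at this depth.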
